A study of Mus musculus with 28 samples.

Results

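A set of 34 genes stood high in the mouse sciatic nerve at postnatal day (P) 5 and low both before birth and in the adult. They were chosen by their level in CPM (read counts scaled to a common library total, after TMM, the trimmed mean of M values). A gene was taken when its mean was at least 1 CPM at embryonic day (E) 17 and at least 5 CPM at P5, and when its P5 mean was at least 3 times its E17 mean and at least 3 times its P60 mean. This left 34 of the 17700 genes tested. Of those 17700, 164 passed both fold limits, 50 of them also passed the P5 limit, and the limit at E17 removed 16 more, which were too low at E17 to count as expressed there. All 34 passed the filter on low counts because the levels were only computed for genes that did.

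The study followed peripheral nerves of wild-type C57BL/6J mice from E13 to the young adult by poly-A RNA sequencing, with 4 libraries per stage (E13 and E17 before birth, which the series text gives as E13.5 and E17.5, then P1, P5, P14 and P24, and P60 as adult). No group carried a mutation or received a treatment, and age is the only variable in the labels. The study took samples from male and from female mice in equal number at each stage, and sex was not used in the fit. The E17 libraries were each pooled from sciatic nerves of 2 embryos, the postnatal libraries each came from 1 mouse, and the outer layers of the nerve were stripped off from E17 on, so that the tissue was mostly endoneurium, the compartment of axons and Schwann cells. The E13 libraries were made from various unstripped nerves of 2 embryos, and at E13 age, nerve type and dissection cannot be told apart. Mice were not perfused, so blood was not flushed from the nerve.

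In the perinatal nerve, Schwann cells sort single axons, leave the cell cycle and pass through a pro-myelinating state to form myelin. The POU factor Oct6 (Pou3f1) marks the pro-myelinating state and the zinc-finger factor Egr2 (Krox20) drives the myelin programme, in which genes for myelin proteins and lipids are switched on. In the weeks that follow the myelin sheath thickens, and the rate of its synthesis drops once the sheath is built.

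E17, P5 and P60 levels chose the genes, so these levels, and every comparison that involves P5, are given below as descriptions with no test. P1, P14 and P24 did not enter the choice, and P14 against P1 and P24 against P14 were tested. Because the choice required a P60 level far below P5, a fall at some point between P5 and P60 was built in, and falls from P14 to P24 are to be read with that in mind. Values are CPM of the libraries, listed from replicate 1 to 4, or mean ± SD (n = 4). Changes are log2 fold changes ± SE of the edgeR quasi-likelihood test with p-values adjusted (Benjamini-Hochberg) over 17700 genes, and a gene was called when its adjusted p was under 0.05 and its fold at least 2. P-values rest on the spread between the 4 libraries within a stage, pooled over all stages in a joint fit, E13 included. Over all genes the median SD was 35.0% of the mean at E13 and 9.92% to 16.4% at the other stages. A gene that varied widely at E13 can therefore fail a test between stages where its libraries lay close together.

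Library totals ran from 13899895 to 37662780 counts, and the 34 genes took 0.126% of the counts at E13 and 0.168% at E17, then 0.816% at P1 and 1.02% at P5, and after that 0.677% at P14 and 0.613% at P24, with 0.200% left at P60. Pmp2 and Gm37389, which share reads, made up 0.307% of the counts at P5, 0.339% at P14 and 0.399% at P24, and the other 32 genes took 0.716%, 0.338% and 0.214% at these stages. Schwann cell markers were present at every stage, with Sox10 at 117 ± 59.4 CPM at E13 and 367 ± 49.8 CPM at P5. The 7 Schwann cell markers summed to 527 CPM at E13 (337 to 712 over libraries) and 32590.4 at P5. At E13 this was below the 16 erythroid markers (11065 CPM, 4534 to 27260.0) and the 17 markers of neuronal cell bodies (3551), and 22 muscle markers reached 1528 CPM in 1 library. Replicates 1 and 4 at E13 and replicate 1 at P1 lay farthest from their stages over all genes, with a median absolute log2 deviation of 0.512, 0.464 and 0.232 against 0.0837 to 0.216 in the others. In tissue libraries, fewer cells of a type and less RNA per cell cannot be told apart.

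The name "transient P5 peak" fitted part of the set. Among the stages from E17 on, the highest mean fell at P5 in 22 of the 34 genes, at P1 in 9, at P24 in 2 and at P14 in 1. With libraries scaled by size only, the choice gave 26 genes, of which 13 were highest at P5. Over all genes tested, 7.83% had their highest mean at P5 among these stages. With E13 included, 19 of the 34 were highest at P5 (4.98% of all genes) and 4 at E13. The 4 libraries of P5 all lay above the 4 of P1 in 19 genes, where 15.8% of all genes did so, and all lay below them in 4 (Shtn1, Gpr37, Mamdc2 and Zswim5), against 14.6% of all genes. P5 lay wholly above P14 in 28 genes (22% of all genes) and wholly below it in 2 (21.6% of all genes), Pmp2 and Gm37389. Only 13 genes stood above both neighbours in every library, and the set is therefore called the P5-high genes below. Since P5 entered the choice, these shares of all genes are given for scale only.

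**Figure D1:**
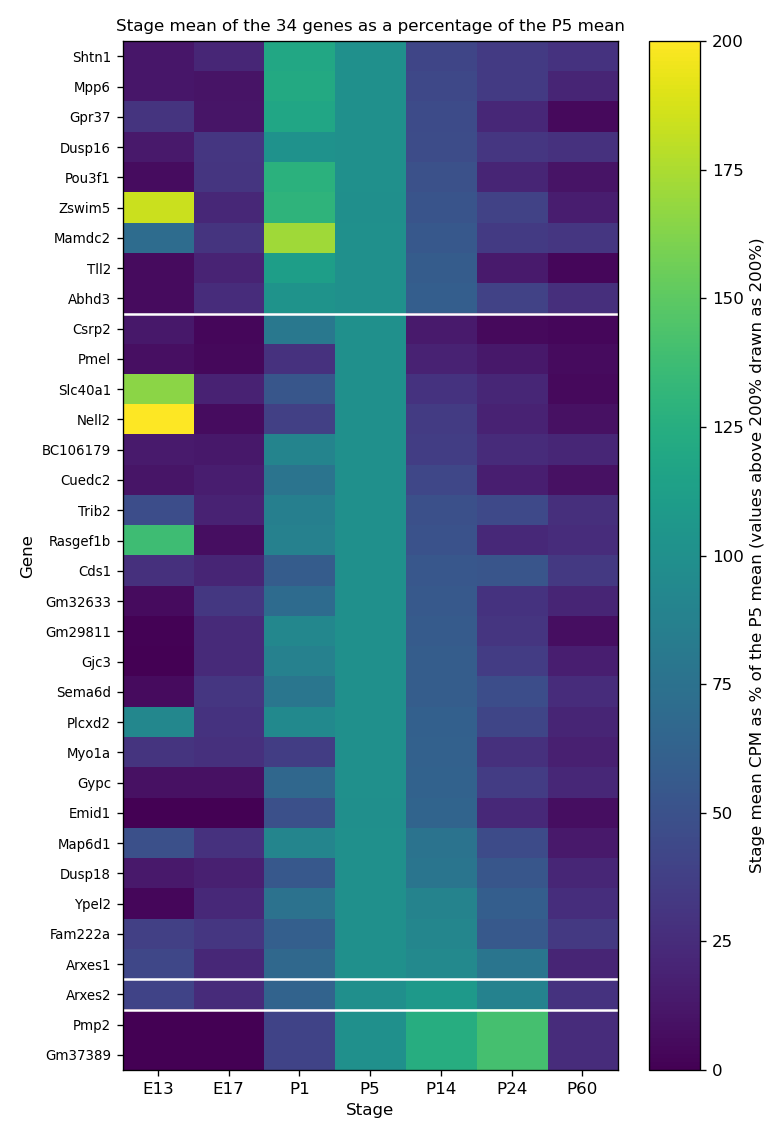
Stage mean CPM of the 34 P5-high genes (rows) at the 7 stages (columns) as a percentage of the P5 mean, with rows grouped by the stage of the highest mean from E17 on (P1, P5, P14 and P24, separated by white lines). The 9 genes of the upper block were higher at P1 than at P5, and Pmp2 and Gm37389 in the lowest block were higher at P14 and P24 than at P5.

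Genes near the limits show how fine the choice was. Just inside the E17 fold limit were Gm32633 (P5 over E17, 3.06-fold), Fam222a (3.15-fold) and Dusp16 (3.18-fold), and just outside were Wasf1 and Phldb2 (both 2.89-fold) and Slain1 (2.75-fold). At the P60 fold limit Cds1 (P5 over P60, 3.02-fold), Fam222a (3.05-fold) and Mamdc2 (3.15-fold) were inside, and Stk39 and Depdc7 (both 2.98-fold) and Has2 (2.92-fold) were outside. Pmel (1.15 CPM), Rasgef1b (1.33 CPM) and BC106179 (1.45 CPM) were the lowest kept at E17, against 0.999 CPM for Gm45221, 0.855 CPM for Syn3 and 0.767 CPM for Celsr3. Myo1a was the lowest kept at P5 (5.30 CPM), and Gm1821 (4.51 CPM) and Lrrtm2 (3.76 CPM) were left out.

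Promoter sequences of the P5-high genes were taken from RefSeq (GRCm38.p6), from 250 bases before to 50 bases after each transcription start. The table held 27 windows for 23 of the 34 genes. Their GC content was high, with a median of 64.3% (46.7% to 79.7%) against 52.7% over all 32851 promoters. The letters searched, on both strands, were GCGNGGGCG (an Egr-type site, the kind of sequence Egr2 binds), TCACNCCAC (a sterol response element), CACGTG (an E-box), the CCAAT box by its letters, the TATA box TATAAA and the Sox-type site ACAANG.

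The Egr-type letters occurred in 7 of the 27 windows (25.9%), against 5.55% of all promoters. Here and below, all promoters are those of the whole RefSeq table. Unlike the set, they were not limited to genes that passed the filter on low counts. GC content moved with this count: all 7 were among the 14 windows with a GC content of at least 64.3%, where they made 50%, and of the 6445 promoters of all genes with that GC content 20.9% held the letters. The part of GC content in the result was not tested. E-boxes stood in 7.41% of the windows (7.15% of all promoters), CCAAT in 29.6% (37.4%) and the Sox-type letters in 40.7% (41.2%). TATAAA occurred in no window (13.6% of all promoters), and neither did the sterol response element (1.24%). The 10 Egr-type matches of the 7 promoters are shown with 10 bases on either side, because they were more frequent here than over all promoters. Capitals mark the 9 matched bases, and sequences read 5′ to 3′ on the strand of the gene.
Zswim5, chr4:116877172-116877200, plus strand: agtctgtgctCGCCCCCGCgtctcctcgc
Rasgef1b, chr5:99252963-99252991, minus strand: ctgcagggcgGCGTGGGCGgagagctgcg
Rasgef1b, chr5:99252904-99252932, minus strand: cctgcggcggGCGGGGGCGtggcctgcgg
Cds1, chr5:101764905-101764933, plus strand: cgcccaggctCGCCCCCGCgttcctccgt
Mpp6, chr6:50110639-50110667, plus strand: tccctctgcgGCGCGGGCGcctcggcgtg
Mpp6, chr6:50110815-50110843, plus strand: acacgcctctGCGGGGGCGgtcgccgctc
Dusp16, chr6:134792748-134792776, minus strand: ccccccgcccCGCCCTCGCccgtctcctc
Emid1, chr11:5152331-5152359, minus strand: gggcgtcctgGCGGGGGCGcggacggctt
Emid1, chr11:5152268-5152296, minus strand: cgaagccgagCGCCCCCGCcctgctccgc
Ypel2, chr11:86993765-86993793, minus strand: tgggataggcGCGGGGGCGcgtctgtcac

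Emid1, the gene with the largest ratio of P5 over E17, held 2 of these matches, in capitals in the 250 bases before its start (chr11:5152231-5152480, minus strand).
Emid1: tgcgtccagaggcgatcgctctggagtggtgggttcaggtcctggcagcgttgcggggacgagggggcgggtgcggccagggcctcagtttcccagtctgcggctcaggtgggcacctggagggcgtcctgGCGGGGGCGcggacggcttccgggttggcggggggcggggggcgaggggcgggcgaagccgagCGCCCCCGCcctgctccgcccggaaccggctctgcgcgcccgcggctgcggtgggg

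Gjc3, the most abundant of the set at P5 in CPM, held no Egr-type match. In the 250 bases before its start (chr5:137963099-137963348, minus strand) capitals mark a Sox-type match and a CCAAT.
Gjc3: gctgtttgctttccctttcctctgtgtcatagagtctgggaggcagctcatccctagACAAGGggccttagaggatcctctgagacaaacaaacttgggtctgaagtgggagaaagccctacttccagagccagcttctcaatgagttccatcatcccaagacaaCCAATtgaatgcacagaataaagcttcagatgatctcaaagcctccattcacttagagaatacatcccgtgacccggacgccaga

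Arxes1 and Arxes2, X-linked copies of one gene, shared all 300 of 300 bases of their promoter windows. The 250 bases before the start are shown once, since they are the same at chrX:136033117-136033366, plus strand (Arxes1) and chrX:135993570-135993819, plus strand (Arxes2), and no base is in capitals because none differed.
Arxes1 and Arxes2: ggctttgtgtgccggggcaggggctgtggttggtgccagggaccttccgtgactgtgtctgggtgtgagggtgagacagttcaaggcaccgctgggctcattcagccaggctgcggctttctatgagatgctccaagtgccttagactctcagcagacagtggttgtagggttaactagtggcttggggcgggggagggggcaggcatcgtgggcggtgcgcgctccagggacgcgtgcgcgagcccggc
A match is a run of letters in this window and was not tied to binding of any factor.

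Gjc3, Pmp2, Sema6d and Gypc encode a protein of myelin or of cell membranes. Gjc3 (chr5:137953461-137963098, minus strand on GRCm38) encodes connexin 29, a gap junction protein of myelinating glia. Its libraries held 435, 404, 397 and 411 CPM at E17, 1671, 1608, 1376 and 1496 at P1, then 1720.3, 1799, 1591 and 1917 at P5, 1075, 1022, 948 and 1075 at P14, later 573, 765, 549.6 and 586 at P24 and 273, 299, 308 and 283 at P60. All P1 and P5 libraries lay above all others, and the P1 and P5 libraries overlapped. Neither tested step reached a fold of 2 (P14 against P1, -0.58 ± 0.15, adjusted p = 0.00276 and P24 against P14, -0.74 ± 0.15, adjusted p = 0.00325), although both p-values were under 0.05. At E13 it stood at 7.93 ± 2.96 CPM.

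Pmp2 (chr3:10179851-10183929, minus strand) encodes the P2 protein, a fatty-acid-binding protein of peripheral myelin. Its libraries went from 6.87, 6.39, 5.82 and 10.996 CPM at E17 to 741, 749.9, 553 and 674 at P1 and 1544, 1590.1, 1766 and 1867 at P5. They then stood at 2096, 2337, 2052 and 1928 CPM at P14, later 2192, 2929, 2273 and 2141 at P24 and 449, 553, 326 and 409 at P60. P14 lay above P5 in every library, and Pmp2 was higher at P14 than at P1 (1.63 ± 0.17, adjusted p = 8.65e-09). P24 against P14 did not pass the test (0.18 ± 0.17, adjusted p = 0.702), and all P60 libraries lay below those of P24. Gm37389 (chr3:10179852-10197262, minus strand), a gene model that spans Pmp2 and Fabp9, had nearly the same values (1486, 1539, 1699 and 1798 CPM at P5). It shares 1224 exon bases with Pmp2 on the same strand (633444 counts against 656191 for Pmp2 over all libraries), its other exons overlap Fabp9 (2 counts in all), and the counts of Pmp2 and Gm37389 cannot be taken as separate measurements.

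Sema6d (chr2:124089969-124667770, plus strand), a transmembrane semaphorin, held 375, 391, 358 and 381 CPM at E17, 968, 989.8, 848 and 976 at P1, then 1182, 1234, 1092 and 1307 at P5, 717, 696, 669 and 743 at P14 and 308, 309, 312 and 302 at P60. P5 lay above every other stage in all its libraries. All its P14 libraries lay below all P1 libraries, and all P24 libraries below all P14 libraries. The differences between P14 and P1 (-0.42 ± 0.24, adjusted p = 0.154) and between P24 and P14 (-0.32 ± 0.24, adjusted p = 0.614) did not pass the test. The SE draws on all stages, and at E13 its SD was 64.0% of the mean. In some alternative settings the adjusted p was under 0.05 for each step, with the fold still under 2.

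Gypc, glycophorin C, which anchors the membrane skeleton and is best known from red blood cells, had 23.9, 23.9, 23.0 and 19.8 CPM at E17, 169.6, 176, 163 and 189 at P1, then 258, 245, 253 and 285 at P5, 175.4, 156, 149 and 175.0 at P14 and 67.0, 54.3, 55.2 and 52.4 at P60. P1 and P14 differed by little on either side of P5 (-0.088 ± 0.095, adjusted p = 0.464). P24 against P14 had a low p but stayed under a fold of 2 (-0.81 ± 0.10, adjusted p = 2.99e-06). The 16 erythroid markers tested summed to 667 CPM at E17 (441 to 1094 over libraries), 235 at P5 (143 to 428) and 107 at P60 (91.7 to 118), and their part in the level of Gypc was not tested.

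**Figure D2:**
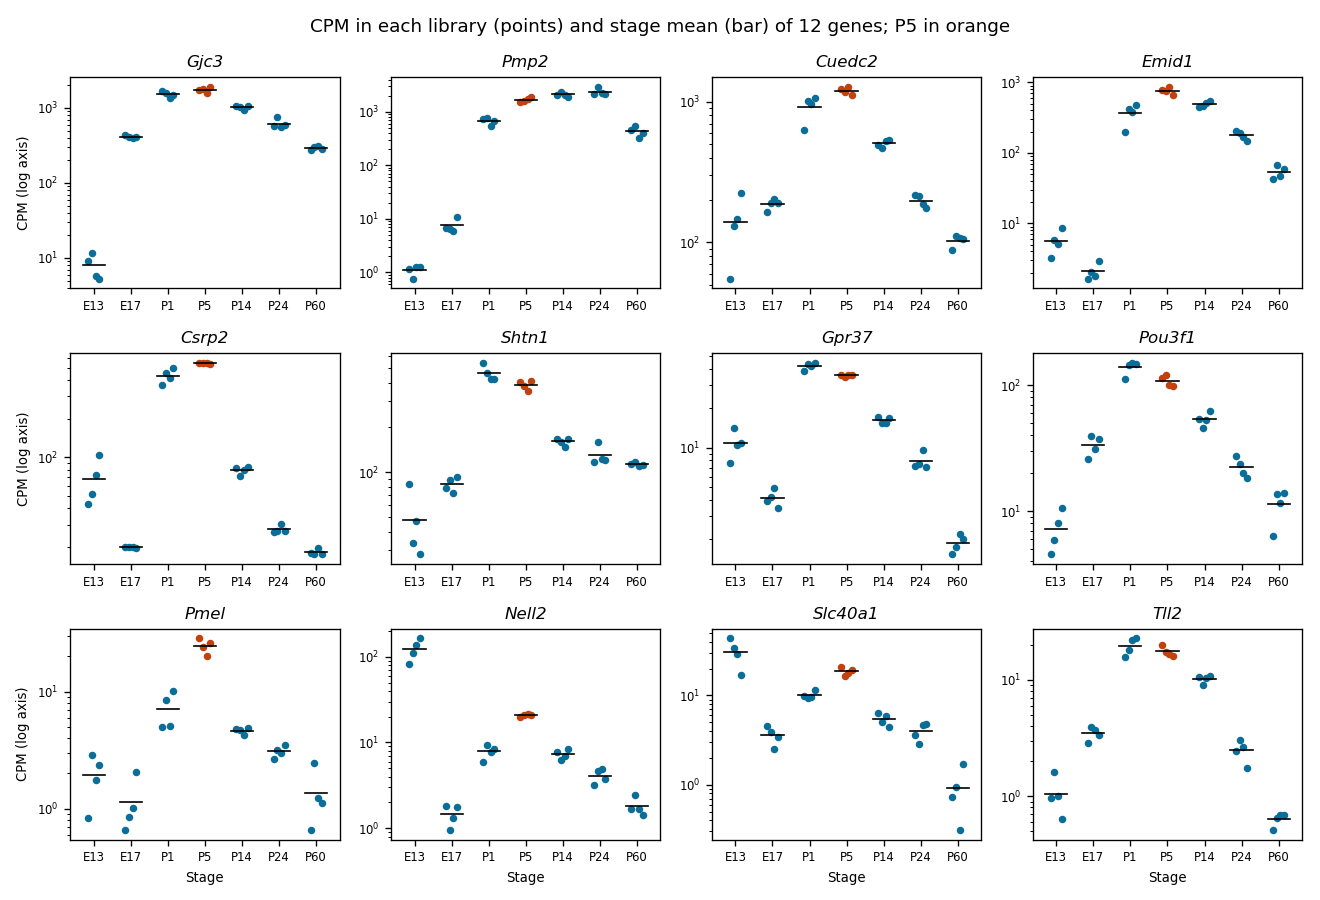
CPM (log axis) of 12 P5-high genes in each of the 28 libraries by stage, with points for libraries (P5 in orange) and bars for stage means. Csrp2 and Pmel drop steeply after P5, Shtn1, Gpr37 and Pou3f1 are already highest at P1, Pmp2 stays high until P24, and Nell2 and Slc40a1 are highest at E13.

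Secreted and matrix genes formed a second group. Emid1 (chr11:5106265-5152257, minus strand), which encodes a secreted protein with an EMI domain, had 1.65, 2.06, 1.78 and 2.95 CPM at E17, 200.4, 422, 382 and 480.1 at P1, then 777, 745, 868 and 672 at P5, 449.7, 469, 518 and 543 at P14, later 208, 195, 166 and 148 at P24 and 43.1, 66.4, 46.8 and 59.8 at P60. Its P5 mean was 362 times its E17 mean, the largest ratio over E17 in the set, and 14.2 times its P60 mean. P5 lay above all P1 and all P14 libraries, P14 against P1 did not pass the test (0.42 ± 0.22, adjusted p = 0.123), and from P14 to P24 it fell (-1.47 ± 0.23, adjusted p = 0.000122). Replicate 1 at P1 was the lowest of its stage, and without it the P14 to P1 difference was 0.23 (adjusted p = 0.388).

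Tll2 (chr19:41082753-41206835, minus strand), a tolloid-like metalloprotease, held 2.86, 3.91, 3.72 and 3.33 CPM at E17, 15.7, 18.0, 22.0 and 22.7 at P1, then 20.0, 17.47, 16.5 and 16.0 at P5, 10.6, 8.99, 10.3 and 10.9 at P14, later 2.44, 3.03, 2.67 and 1.73 at P24 and 0.512, 0.653, 0.684 and 0.691 at P60. P1 and P5 overlapped and each later stage lay wholly below the one before. P14 against P1 stayed just under a fold of 2 (-0.94 ± 0.18, adjusted p = 7.71e-05) and passed it without replicate 1 at P1 (-1.02, adjusted p = 4.98e-05). From P14 to P24 it had the deepest fall of the set (-2.05 ± 0.20, adjusted p = 1.68e-07). Mamdc2, a proteoglycan with MAM domains, was at 67.1, 54.2, 52.1 and 56.9 CPM at P1, then 31.6, 34.7, 32.5 and 35.5 at P5 and 22.6, 16.3, 16.5 and 18.9 at P14. It was highest at P1, where its mean was 172% of that at P5, and it was lower at P14 than at P1 (-1.63 ± 0.20, adjusted p = 1.02e-07).

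Nell2 (chr15:95075230-95528559, minus strand), a secreted protein with EGF repeats known from neurons, and Pmel (chr10:128704195-128720238, plus strand), which forms the amyloid fibrils of melanosomes, were the only 2 genes with less than 50% of their P5 mean at both P1 and P14. Nell2 stood at 1.81, 0.951, 1.319 and 1.76 CPM at E17, 5.87, 9.45, 7.80 and 8.41 at P1, then 20.1, 21.1, 21.7 and 21.2 at P5, 7.77, 6.27, 6.90 and 8.47 at P14 and 1.68, 2.47, 1.68 and 1.44 at P60. At E13, where 17 markers of neuronal cell bodies summed to 3551 CPM (2385 to 4151) against 39.0 (33.5 to 43.2) at P5, it was at 81.8, 110.2, 138 and 164 CPM, and the part of neuronal cells in that value was not tested.

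Pmel had 0.660, 0.845, 1.01 and 2.07 CPM at E17, 4.99, 8.41, 5.10 and 10.02 at P1, then 28.5, 23.98, 20.3 and 26.1 at P5, 4.75, 4.75, 4.25 and 4.86 at P14 and 0.658, 2.47, 1.24 and 1.13 at P60. Every P5 library lay above every library of all other stages. Of 11 melanocyte markers, a list added after the values of Pmel had been seen, 4 passed the filter on low counts. They summed to 2.95 CPM at E17 (2.37 to 3.43), 36.7 at P1 (33.5 to 40.02), 45.2 at P5 (38.8 to 51.0), 28.2 at P14 (27.9 to 29.0) and 24.2 at P60 (21.3 to 27.1), most of it Mitf (39.6 ± 5.41 CPM at P5). Of the genes for melanosome proteins Dct was at 2.32 ± 0.254 CPM and Tyrp1 at 3.29 ± 0.605 CPM at P5, and Slc24a5 was near 0 (0.0391 ± 0.0540 CPM). The part of melanocytes in the level of Pmel was not tested. Exons of Pmel overlap those of Cdk2 and Dgka on the other strand by 34 and 105 bases, and whether the counting used strand is not stated.

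Of 5 genes of the cytoskeleton and cell adhesion, Csrp2, Shtn1 and Mpp6 had more than 50% of their P5 mean at P1 but less at P14. Csrp2 (chr10:110919789-110939622, plus strand), a LIM-domain protein that associates with actin, held 20.0, 19.9, 19.9 and 19.6 CPM at E17, 370.3, 453, 415 and 494 at P1, then 549, 541, 548 and 536 at P5, 82.3, 71.7, 80.3 and 84.0 at P14, later 26.1, 26.9, 30.2 and 26.7 at P24 and 18.1, 17.6, 19.6 and 17.6 at P60. Both ratios of the choice were high, with P5 at 27.4 times E17 and 29.8 times P60, and P5 lay above P1 and P14 in every library. It fell from P1 to P14 (-2.45 ± 0.17, adjusted p = 2.69e-12) and again from P14 to P24 (-1.53 ± 0.16, adjusted p = 7.67e-07). Without the P1 library that stood apart the first of these was -2.50 (adjusted p = 1.29e-11).

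Shtn1 (chr19:58973356-59076100, minus strand), shootin 1, which couples actin flow to adhesion in growth cones, stood at 78.6, 88.1, 72.8 and 93.6 CPM at E17, 545, 462, 421 and 421 at P1, then 401, 379, 349.9 and 409 at P5, 168, 160.1, 149 and 167 at P14 and 113, 117, 110.3 and 112 at P60. Mpp6, a membrane scaffold of the MAGUK family, stood at 32.1, 25.3, 24.2 and 27.1 CPM at E17, 378, 315, 285 and 296 at P1, then 251, 257, 245 and 298 at P5, 131, 107, 105 and 112 at P14 and 62.8, 54.9, 52.9 and 45.8 at P60. Both were highest at P1, and both fell from P1 to P14 (Shtn1, -1.52 ± 0.20, adjusted p = 4.32e-07 and Mpp6, -1.49 ± 0.21, adjusted p = 9.44e-07). From P14 to P24 neither passed the test (Shtn1, -0.31 ± 0.20, adjusted p = 0.502 and Mpp6, -0.35 ± 0.20, adjusted p = 0.427). All P24 libraries of Mpp6 lay below all its P14 libraries, while those of Shtn1 overlapped. Map6d1, related to the microtubule stabiliser MAP6, and Myo1a, a class I myosin of the brush border, were the scarcest, at 6.505 ± 0.931 and 5.30 ± 0.532 CPM at P5. Myo1a fell from P14 to P24 (-1.17 ± 0.28, adjusted p = 0.011), a call that was lost without replicate 4 at P24 (-1.09, adjusted p = 0.0501).

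Of the signalling proteins and regulators, Pou3f1 (chr4:124656807-124660655, plus strand), the pro-myelinating factor Oct6, held 4.54, 5.94, 8.09 and 10.5 CPM at E13, 26.0, 39.3, 31.3 and 37.7 at E17, 113, 145, 151 and 149 at P1, then 115, 121, 101 and 98.8 at P5, 53.7, 45.7, 52.9 and 62.1 at P14, later 27.3, 23.5, 20.2 and 18.4 at P24 and 6.29, 13.7, 11.7 and 13.8 at P60. Its highest mean was at P1, with P1 and P5 overlapping. It fell from P1 to P14 (-1.38 ± 0.21, adjusted p = 3.45e-06) and from P14 to P24 (-1.27 ± 0.21, adjusted p = 0.000273). Gpr37, an orphan-type receptor of glia, had a similar course at a lower level, with 38.4, 43.5, 41.9 and 44.6 CPM at P1, then 35.9, 34.5, 35.9 and 36.1 at P5, 17.2, 15.5, 15.4 and 16.9 at P14 and 7.25, 7.48, 9.63 and 7.07 at P24. It fell at both steps (P14 against P1, -1.37 ± 0.14, adjusted p = 6.26e-09 and P24 against P14, -1.05 ± 0.15, adjusted p = 3.1e-05), and the second call was lost without replicate 4 at P24 (-0.997) and with libraries scaled by size only (-0.98).

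Cuedc2 (chr19:46329812-46338702, minus strand), a CUE-domain protein that binds ubiquitin, had 164, 191, 204 and 191 CPM at E17, 633, 1008, 961 and 1062 at P1, then 1226, 1166, 1276 and 1111 at P5, 491, 471, 529 and 538 at P14, later 217, 214, 189 and 174.8 at P24 and 88.3, 111, 108 and 106 at P60. P5 lay above every other stage in all libraries. P14 against P1 stayed under a fold of 2 (-0.85 ± 0.23, adjusted p = 0.00272), and from P14 to P24 it fell (-1.35 ± 0.23, adjusted p = 0.000343). Trib2, a pseudokinase, was at 217, 249, 216 and 240.0 CPM at P1, then 264, 265, 264 and 275 at P5 and 131, 127, 126 and 134 at P14, and stood at 117 ± 2.11 CPM at P24, a difference from P14 that did not pass the test (-0.15 ± 0.12, adjusted p = 0.648). Its P24 libraries all lay below its P14 libraries.

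The dual-specificity phosphatases Dusp16, which acts on the stress kinases JNK and p38, and Dusp18 differed in course. Dusp16 was at 174, 186, 156 and 172 CPM at P1, then 162, 166, 157 and 191 at P5 and 83.2, 72.5, 77.0 and 81.4 at P14 and fell from P1 to P14 (-1.13 ± 0.12, adjusted p = 1.87e-08). Dusp18 was at 93.5, 93.4, 81.6 and 84.8 CPM at P1, then 169.6, 152, 150.2 and 171 at P5 and 126, 119.98, 122 and 133 at P14, so that its P14 libraries lay above its P1 libraries, with a difference under a fold of 2 (0.50 ± 0.11, adjusted p = 0.000618). Ypel2, of the yippee-like family, also stayed up, at 264, 278, 245 and 274 CPM at P5 and 236, 242, 225 and 249 at P14, and its small difference between P14 and P1 (0.25 ± 0.11, adjusted p = 0.0547) changed sign when libraries were scaled by size only (-0.12). Rasgef1b, a guanine nucleotide exchange factor for Rap proteins, held 1.15, 1.95, 1.28 and 0.943 CPM at E17 and 25.3, 19.5, 13.8 and 12.998 at P5, the widest relative spread at P5 among the 34, and fell from P14 to P24 (-1.13 ± 0.24, adjusted p = 0.00331).

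Among genes of lipid and ion handling, Slc40a1 (chr1:45908068-45926523, minus strand), the iron exporter ferroportin, had 4.51, 3.91, 2.52 and 3.46 CPM at E17, 9.73, 9.37, 9.55 and 11.5 at P1, then 20.8, 16.7, 17.8 and 19.4 at P5, 6.34, 5.03, 5.84 and 4.41 at P14 and 0.731, 0.943, 0.311 and 1.70 at P60. P5 lay above every stage from E17 on in all libraries, while the mean at E13 was higher still (30.8 ± 11.1 CPM). Macrophages also express ferroportin, and 14 macrophage markers summed to 581 CPM at E13 (475 to 675), 157 CPM at E17 (147 to 164), 167 at P1 (157 to 186), 336 at P5 (298 to 361), 299 at P14 (263 to 344) and 351 at P60 (296 to 387). The part of macrophages in the level of Slc40a1 was not tested.

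Abhd3, a phospholipase, stood at 40.7 ± 2.56 CPM at P1, 39.5 ± 1.41 at P5 and 23.5 ± 3.40 at P14. Cds1, which makes CDP-diacylglycerol for phospholipid synthesis, stood at 7.67 ± 0.834 CPM at P1, 13.3 ± 1.26 at P5 and 7.22 ± 0.630 at P14, all 4 P5 libraries above both neighbours, and the difference between these neighbours did not pass the test (-0.086 ± 0.13, adjusted p = 0.61). Plcxd2, with a phospholipase C X domain, stood at 18.9 ± 2.18 CPM at P1, 19.8 ± 1.324 at P5 and 12.2 ± 0.484 at P14.

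Arxes1 and Arxes2, known from adipocytes, had overlapping libraries at P5 and P14. Arxes1 held 34.2, 31.97, 32.4 and 33.9 CPM at P5 and 30.5, 36.1, 29.4 and 29.2 at P14, and Arxes2 held 41.5, 57.1, 38.6 and 50.5 at P5 and 39.9, 65.8, 42.4 and 53.4 at P14. At P60 they were down to 6.74 ± 0.648 and 13.9 ± 1.77 CPM. Their transcripts were 99.2% identical over 727 aligned bases, so the split of reads between them is uncertain. The 16 adipocyte markers tested summed to 78.2 CPM at P5 (58.6 to 111), 216 at P14 (102 to 279) and 916 at P60 (561 to 1334), and the part of adipocytes in the levels of the Arxes genes was not tested.

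The remaining genes were Zswim5, with 35.6 ± 2.14 CPM at P1, 27.4 ± 1.88 at P5 and 14.3 ± 2.16 at P14, BC106179 with 10.1 ± 1.84, 11.1 ± 0.388 and 4.08 ± 0.937 CPM, Fam222a with 6.15 ± 2.03, 10.2 ± 1.76 and 9.37 ± 1.12 CPM, Gm29811 with 24.9 ± 3.53, 26.9 ± 3.00 and 15.5 ± 1.04 CPM, and Gm32633 with 6.46 ± 1.22, 9.27 ± 1.13 and 5.20 ± 0.652 CPM at these stages. Zswim5 (-1.32 ± 0.13, adjusted p = 5.1e-09) and BC106179 (-1.30 ± 0.21, adjusted p = 1.22e-05) were lower at P14 than at P1. Exons of BC106179 overlap St6gal1 on the other strand by 200 bases, and St6gal1 had 296950 counts against 3323 for BC106179 over all libraries. Per kilobase of exon at P5, Pmp2 (1201 CPM per kb), Cuedc2 (507), Gjc3 (403), Emid1 (265) and Csrp2 (250.3) stood highest apart from Gm37389, and Rasgef1b (1.30) lowest.

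The levels on either side of P5 sorted the 34 genes into 4 courses. A broad course, with at least 50% of the P5 mean at both P1 and P14, was found in 18, an early shoulder (P1 only) in 10, a late shoulder (P14 only) in 4 (Pmp2, Gm37389, Emid1 and Myo1a), and a sharp course in Pmel and Nell2. Emid1 was on the line between courses: without replicate 1 at P1, which stood apart, its P1 mean was 55.9% of that at P5 and its course was broad. Leaving out single libraries of P1, P5 or P14 also moved Pou3f1, Rasgef1b and Zswim5 between the broad and the early course. Over the 34 genes the median level was 21.4% of P5 at E17 and 79.1% at P1, and after P5 it was 56.8% at P14 and 34% at P24, with 20.5% left at P60.

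**Figure D3:**
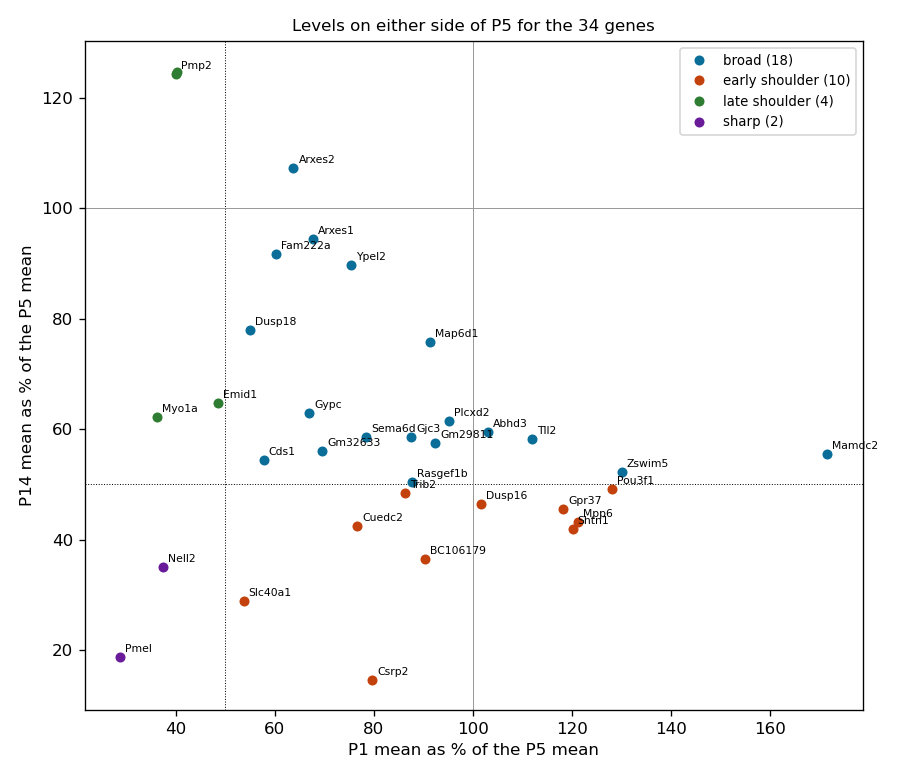
P1 mean (horizontal) against P14 mean (vertical) of each of the 34 P5-high genes, both as a percentage of the P5 mean, coloured by course; dotted lines mark 50% and grey lines 100%, and the unlabelled point at Pmp2 is Gm37389. The 18 broad genes fill the upper right, Csrp2 is the lowest of the early-shoulder genes, and Pmel and Nell2 lie below 50% on both axes.

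P14 against P1 asked on which side of P5 these genes stood higher. In the test, 9 of the 34 were lower at P14 (Csrp2, Mamdc2, Shtn1, Mpp6, Pou3f1, Gpr37, Zswim5, BC106179 and Dusp16), 2 were higher (Pmp2 and Gm37389, which share reads) and 23 were not called. Over all genes 24.6% were called, 14.8% higher and 9.77% lower. The median change was -0.62 over the 34 genes and 0.00 over all genes. With libraries scaled by size only, the median over all genes shifted to -0.36, the share of called genes that were higher went from 60.3% to 35.2%, and 17 of the 34 were lower, so the number of falls depends on the scaling while the 9 named genes were lower under both. Cell type markers moved at this step too. Higher at P14 were 14 of 16 adipocyte markers (median 6.58), 11 of 22 muscle (1.76), 7 of 12 tendon and perineurial (1.92), 5 of 10 pericyte and smooth muscle (1.38), 6 of 14 macrophage (0.81) and 2 of 7 Schwann cell markers (0.49), with none lower in these lists. Of 14 fibroblast markers 7 were higher and 1 lower (1.19), of 15 endothelial 9 and 3 (1.17), and of 17 neuronal cell body markers none and 3 (-0.87). The medians of the other 6 lists (cartilage and bone, erythroid, neutrophil, lymphocyte, mast cell and epidermal) lay between 0.030 and 1.24. Of 14 cartilage and bone markers 4 were higher and 5 lower. Among 11 neutrophil and 5 lymphocyte markers 2 were higher and 1 lower in each list. Of 6 epidermal markers 1 was higher and 1 lower, and no erythroid or mast cell marker was called. The part of these cells in the changes of the P5-high genes was not tested.

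P24 against P14 asked whether the genes still moved late in myelination. Here 8 of the 34 fell (Tll2, Csrp2, Emid1, Cuedc2, Pou3f1, Myo1a, Rasgef1b and Gpr37) and 0 rose in edgeR, where 0 also had a higher level at an unadjusted p under 0.05, and 0 rose in limma-voom or DESeq2. By levels alone, 24 of the 34 had all P24 libraries below all P14 libraries, as 9.31% of all genes did. Over all genes only 2.65% were called at this step, 1.51% higher and 1.14% lower. The median change was -0.59 over the 34 genes and -0.0047 over all genes. Csrp2, Pou3f1 and Gpr37 fell at both steps. Marker levels moved at this step as well. The 7 Schwann cell markers summed to 56948 CPM at P14 (49252 to 62903) and 46935 at P24 (40642 to 52387), with a median change of -0.27 and none called. Of the neuronal cell body markers 4 were higher (median 0.52), of the tendon and perineurial 2 (0.66), and of the fibroblast (0.58), endothelial (0.20), pericyte and smooth muscle (0.23) and neutrophil markers (1.41) 1 each, with none lower in these lists. Of the adipocyte markers 1 was higher and 1 lower (0.48), and of the muscle markers none and 2 (-2.03). The medians of the other 6 lists (cartilage and bone, erythroid, lymphocyte, macrophage, mast cell and epidermal) lay between -0.21 and 0.66, with at most 2 genes called in each. Their part in the falls of the P5-high genes was not tested.

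**Figure D4:**
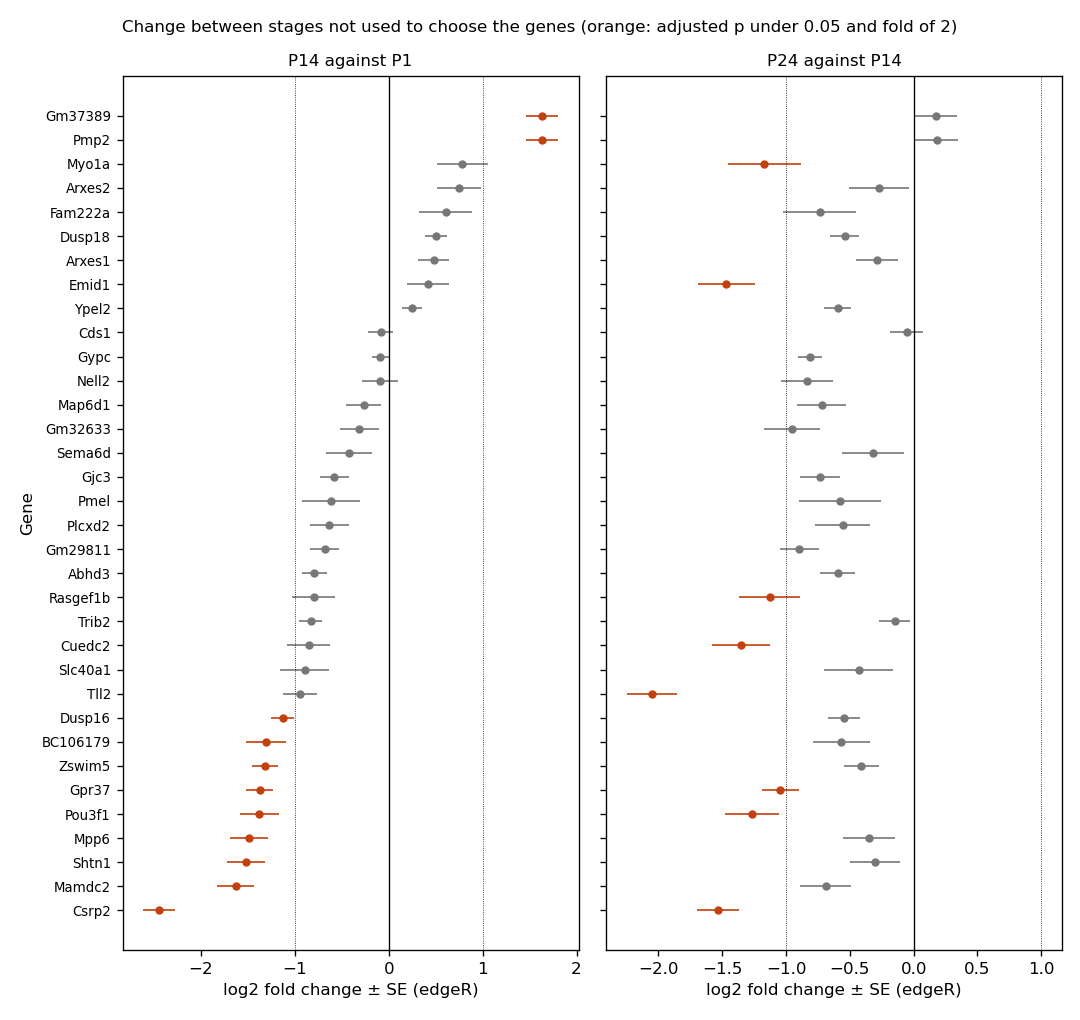
log2 fold change ± SE of each of the 34 P5-high genes for P14 against P1 (left) and P24 against P14 (right), in the order of the left panel; orange points were called (adjusted p under 0.05 and fold of at least 2) and dotted lines mark a fold of 2. At left, 9 genes are called lower and 2 higher; at right, 8 are called lower and none higher.

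On the gene lists for nerve maturation stood Pmp2 (among 14 myelin proteins) and Pou3f1 (among 13 pro-myelinating factors). The set was 34 of the 17700 genes tested, so short lists would seldom hold a member. Of the 14 myelin protein genes, 10 were higher and none lower at P14 than at P1 (median 1.78), and none was called from P14 to P24. Of the 13 pro-myelinating factors, 5 were lower at P14 than at P1 (Pou3f1, its relative Pou3f2, Cdkn1c, Egr3 and Tead1), 1 was higher (Nab1) and 7 were not called (median -0.57), and Pou3f1 and Egr3 fell from P14 to P24. Pou3f2 had a course like Pou3f1, from 47.9 ± 5.11 CPM at P1 and 39.6 ± 6.21 at P5 to 16.7 ± 2.12 at P14 (-1.52 ± 0.22, adjusted p = 1.53e-06). Egr2 went from 27.0 ± 5.52 CPM at E17 to 270.1 ± 50.6 at P1 and 289.6 ± 14.03 at P5, but kept 229 ± 41.0 CPM at P60, and so did not meet the limit on P60. All 18 cell cycle genes were lower at P14 than at P1 (median -2.94) and 10 of them fell again from P14 to P24 (median -1.10, none higher). Of the 11 immature Schwann cell genes 4 were lower and 1 higher at P14 than at P1 (median -0.45), and 1 was lower and 1 higher at P24 than at P14 (median -0.32). No cell cycle or immature Schwann cell gene was in the set, which for lists of 18 and 11 genes says little.

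At E13 the P5-high genes did not form one group. All E13 libraries lay above all E17 libraries in 13 of the 34 genes (25% of all genes tested) and below them in 11 (21.8% of all genes), and 10 overlapped. Nell2, Zswim5, Slc40a1 and Rasgef1b had their highest mean of all stages at E13. Zswim5 stood at 45.9, 39.6, 56.4 and 59.3 CPM at E13 and 5.72, 5.39, 6.60 and 6.28 at E17, and Rasgef1b at 26.3, 18.5, 25.0 and 28.9 and 1.15, 1.95, 1.28 and 0.943 CPM. Gjc3, Pmp2, Ypel2 and Gm29811 were among those lower at E13, with Ypel2 at 10.3, 12.2, 10.8 and 7.53 CPM at E13 and 64.9, 64.7, 57.7 and 56.4 at E17. Various unstripped nerves were pooled at E13, and this cannot be told apart from age.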

How the data were processed

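The authors sequenced stranded poly-A libraries as single-end reads on a HiSeq4000, trimmed and aligned them (STAR 2.6.1c in the submitters' processing notes) and used featureCounts to assign reads to genes. The deposited values are the resulting whole-number counts, with no normalization by the authors. The notes name the build GRCm38.p5, while the study's methods name a human build. Use of strand and treatment of reads with several alignments in counting are not stated, so values of overlapping genes and close copies are uncertain.

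Of 41605 gene identifiers, 41519 were matched to GENCODE M21 (GRCm38), the source of symbols, coordinates and exon lengths. Genes were filtered with filterByExpr by stage (17700 kept) and scaled by TMM. All 28 libraries entered 1 edgeR 4.0.16 fit (R 4.3.3, glmQLFit robust, glmQLFTest) with stage as the only term, with a common dispersion of 0.0439, and p-values were adjusted by Benjamini-Hochberg over all 17700 genes. The SE is the log2 change over the square root of F. Replicate pairs differed by far more than counting error (chi-square per degree of freedom 5.21 to 293), and none was identical. At these totals counting error limits only genes near 1 CPM.

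The genes and lists were chosen with earlier results of these data known, and the melanocyte list after Pmel was seen. The rule for named genes took the 12 highest at P5, the 12 with the largest smaller-of-both fold, the 5 largest called rises and falls per test without overlap of libraries, and those on a list, clone names left out. The results give these at all or some stages. The other genes are named to account for all 34, after their values were seen. Lists were described by counts and medians only. Alternatives were other scalings, no filter, other folds and averages in the choice, the Wald test of DESeq2 1.42.0, limma-voom with limma 3.58.1, other sets of libraries, a replicate block, no fold minimum and each library left out in turn (for the courses around P5, chosen after seeing the data). The fit was tested on simulated counts. Replicate sex was not used, and some results are not reported here.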

Additional observations from a re-analysis of the deposited data

Results flagged for a closer look

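Within each stage the level of each P5-high gene was searched for 1 library far from the other 3 (Dixon's 95% limit for 4 samples). This marked 11 of 238 groups (4.62%), and chance marks about 1 in 20. The cause of these values was not tested.

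Replicate 2 at P24 was the highest of its stage in 5 of them. It held 765 CPM of Gjc3 (549.6 to 586 in the others), 2929 of Pmp2 (2141 to 2273), 2835 of Gm37389 (2068 to 2193), which shares reads with Pmp2, 161 of Shtn1 (117 to 123) and 49.2 of Arxes2 (38.2 to 40.05). Over the 34 genes the median log2 deviation of this library from the mean of its stage, itself included, was 0.14, the largest positive value of the postnatal libraries. Replicate 3 at P24 held 9.63 CPM of Gpr37 against 7.07 to 7.48 in the others.

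At P5, replicate 4 held 275 CPM of Trib2 (264 to 265) and replicate 2 held 34.5 CPM of Gpr37 (35.9 to 36.1). At P1, replicate 3 held 848 CPM of Sema6d (968 to 989.8) and replicate 1 held 3.13 CPM of Fam222a (6.87 to 7.58). At E17, replicate 4 held 49.6 CPM of Dusp16 (53.9 to 54.7).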

How the results depend on the processing

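The set held 32 to 38 genes when each library of E17, P5 or P60 was left out in turn, and 19 to 25 of them were then highest at P5 among the stages from E17. A fold of 2 in the choice gave 134 genes, 72 of them highest at P5, and a fold of 4 gave 16, 12 of them highest at P5. With libraries scaled by size only, the choice gave 26 genes, of which 13 were highest at P5 (22 of 34 as reported), and 17 of the 34 were lower at P14 than at P1 (9 as reported). That scaling turned the sign of Ypel2 for P14 against P1 (-0.12) and of Cds1 for P24 against P14 (0.0076), neither of them called. Without a minimum fold, 8888 genes differed between P14 and P1, 6 of the 34 higher and 18 lower, and 964 between P24 and P14, 19 of the 34 lower. These changes follow from the limits themselves, and the cause of those with the other scaling was not tested.

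Leaving out each library gave 4123 to 4358 called genes for P14 against P1, with 2 of the 34 higher and 9 to 10 lower, and 369 to 508 for P24 against P14, with 0 higher and 6 to 9 lower. The lowest count was without replicate 4 at P24. Libraries with the same replicate number deviated together weakly. Their correlations were 0.0883 to 0.194 for P14 and P1, and 0.0230 to 0.146 for P24 and P14. Between different numbers of P14 and P1 they ran from -0.207 (replicate 3 at P14, 1 at P1) to 0.198 (replicate 3 at P14, 4 at P1). Not every library correlated best with its own number. The labels name no shared litter, and the part of sex in these correlations was not tested. With the replicate number as a block, 4344 and 476 genes were called (4351 and 469 without), and 9 and 8 of the 34 were lower, as without it. DESeq2 size factors, no filter on low counts, limma-voom, DESeq2, the compared stages alone and a fit without E13 kept these counts within 1.5 times. Depth limits genes such as Pmel, Nell2, Rasgef1b, Tll2 and Myo1a, which stood near 1 CPM at some stage.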

Other observations

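Lipid synthesis supplies the growing myelin sheath, and 3 lists of its genes (cholesterol, fatty acids, and sphingolipids with galactolipids) held none of the P5-high genes. The set was 34 of 17700 genes, so lists this short would seldom hold a member, and the absence says little. Cds1, Abhd3 and Plcxd2, members tied to lipids, were on none of these lists. Of 25 genes of cholesterol synthesis and uptake 18 were higher and none lower at P14 than at P1 (median 1.47), as were 11 of 17 of fatty acid synthesis (median 1.16) and 6 of 15 of sphingolipid and galactolipid synthesis (median 0.76, none lower in either list). Over all genes tested 14.8% were higher and 9.77% lower at this step.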
